A study of Canis lupus familiaris with 8 samples.

Results

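The cells described here are PDCD1+ GZMB- FOXP3- T cells of canine blood, 849 of 31909 cells (2.66%) that passed quality filters. Each carried at least 1 unique molecular identifier (UMI, 1 counted transcript molecule) of PDCD1, the gene of the inhibitory receptor PD-1, and none of GZMB (granzyme B) or FOXP3 (the master regulator of regulatory T cells). TCRαβ+ T cells had been sorted from the blood of 4 healthy, untreated Beagles to a stated purity above 99%, cryopreserved, thawed together and sequenced with a droplet-based 5' assay and a V(D)J assay, with 1 library of each kind for every animal. The only female (dog 1) was aged 5 years, and the males were aged 7 (dogs 2 and 3) and 9 years (dog 4). The dog is the replicate (n = 4), and age and sex cannot be told apart from it. In order of dog, 7428, 8873, 8402 and 8422 barcodes carried 26904346, 35661623, 32637367 and 32773374 UMIs, and 87 to 120 barcodes were shared by any pair of libraries, none of them between members.

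The 849 members came from dogs 1 to 4 as 136, 208, 208 and 297 cells. By coreceptor UMIs, 479 carried CD4 without CD8A, 70 carried CD8A without CD4, 12 carried both and 288 carried neither. The CD4 members numbered 83, 115, 115 and 166, and the CD8A members 5, 23, 14 and 28 in dogs 1 to 4. Members were compared with PDCD1- GZMB- FOXP3- cells of the same coreceptor and dog, 11873 CD4 and 2374 CD8A cells. The 849 cells were 55.7% of all PDCD1+ cells, the others carrying GZMB or FOXP3. Of the members, 84.3% held exactly 1 PDCD1 UMI, so that a cell counted as negative may express PDCD1 below detection.

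PD-1 is induced when a T cell receptor is engaged and dampens the signal of that receptor and of the costimulatory receptor CD28 through recruited phosphatases. It marks recently activated and follicular helper T cells as well as chronically stimulated, exhausted cells, which add further inhibitory receptors and the transcription factor TOX. Granzyme K, granzyme B and perforin are cytotoxic granule proteins, CD44 is an adhesion receptor that rises on antigen-experienced cells, and CXCR6 guides T cells into tissues.

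Cells with a PDCD1 UMI made up 2.35, 3.43, 4.68 and 5.51% of CD4 GZMB- FOXP3- cells in dogs 1 to 4, and 1.62, 3.61, 1.79 and 3.91% of the CD8A cells. The CD4 share was higher in 3 of 4 dogs, dog 2 being the exception, and the ranges overlapped. The means were 3.99% ± 1.39 and 2.73% ± 1.19 (SD, n = 4), and the difference of -1.26 percentage points (CD8A minus CD4) was not larger than the spread between dogs (exact sign-flip permutation test, two-sided, p = 0.25, in a design that cannot go below 0.13). To compare at equal depth, cells under 2000 UMIs were left out (375, 400, 254 and 369 CD4 and 27, 75, 88 and 83 CD8A cells of dogs 1 to 4) and the others thinned to 2000 UMIs. The shares were then 2.18% ± 0.796 and 1.33% ± 0.78, and in the same cells before thinning 4.19% ± 1.496 and 2.71% ± 1.12. The CD4 share was higher in 4 of 4 dogs both times (p = 0.13, the smallest the exact permutation test can give with 4 dogs), so dog 2 changed side when the shallow cells were left out and not by the thinning. The exact binomial 95% intervals ran from 1.88 to 2.90% for the CD4 cells of dog 1 and from 0.529 to 3.75% for its CD8A cells, and they cover counting error only.

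As a background, the same share was taken in naive-like cells, defined by at least 1 UMI each of CCR7 and LEF1, which should hold little PDCD1. In naive-like CD4 cells 2.98% ± 1.31 had a PDCD1 UMI, against 4.50% ± 1.29 of the other CD4 cells, at mean median depths of 4109 and 3887 UMIs (n = 4). The other cells were higher in each dog, but the background was more than a trace. Part of the CD4 members thus carry a PDCD1 UMI in a cell with UMIs of CCR7 and LEF1. No other gene entered this definition, and central memory cells also hold CCR7, so these cells need not be naive. Naive-like CD8A cells had a share of 0.992% ± 0.933, against 3.01% ± 1.22 of the other CD8A cells. The share also rose with depth, from 2.46% ± 0.855 of CD4 cells with 500 to 2000 UMIs to 8.32% ± 1.31 of those with 6000 or more, while the PDCD1 level in CPM (UMIs of the gene scaled to a common total of UMIs) was 20.6 ± 9.71 and 15.0 ± 4.39 in the same bins. Median depth was 4402 UMIs in CD4 members against 3901 in PDCD1- CD4 cells, and 4119 against 4172.5 for CD8A.

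**Figure D1:**
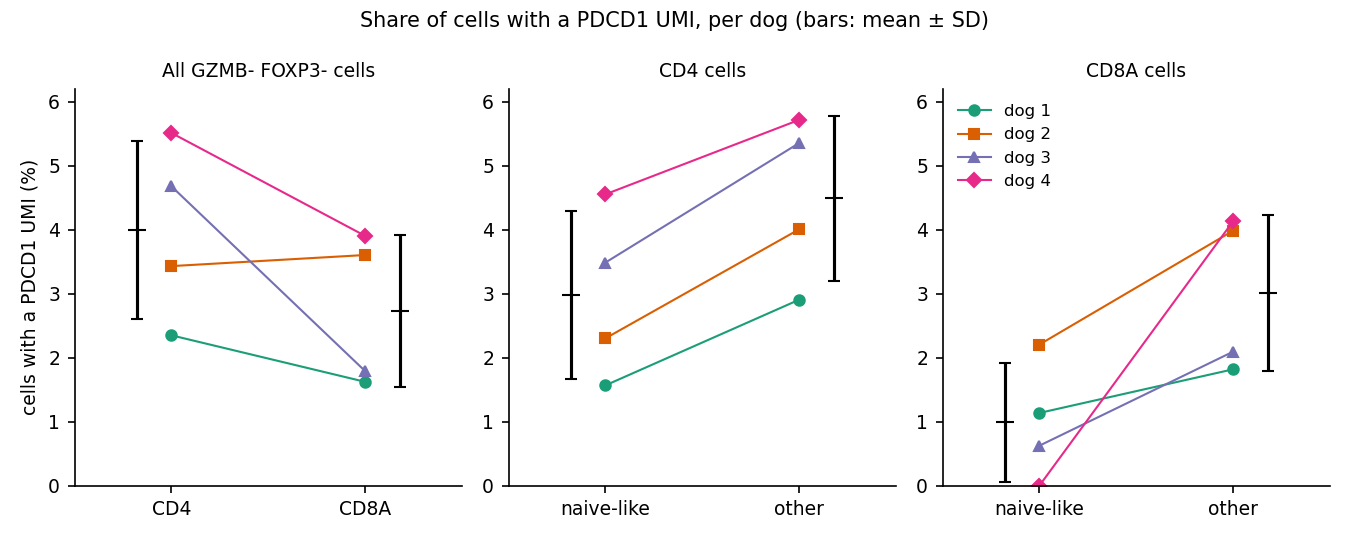
Share of GZMB- FOXP3- cells with a PDCD1 UMI in percent (y axis) for each of the 4 dogs, by coreceptor (left) and in naive-like against other cells (middle, right). Lines join the values of a dog and black bars give the mean ± SD. The CD4 share exceeded the CD8A share in 3 of 4 dogs, and naive-like CD4 cells had a mean of 2.98%.

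GZMK, CD44 and CXCR6 had been named as markers of these cells in earlier results of the same data, so their direction here is not independent evidence, and they were read first. Levels are given in CPM after summing the cells of a dog. A sum does not tell more positive cells from more RNA per cell, which is why, for GZMK, the percentage of positive cells stands beside the level. GZMK stood at 84.9, 653, 363 and 430.3 in the CD4 members of dogs 1 to 4 and at 21.8, 64.3, 118 and 111 in their PDCD1- CD4 cells. It was higher in all 4 dogs, but dog 1 lay far below the other members and within the range of the PDCD1- cells. The log2 fold change was 2.26 ± 0.08 (SE, adjusted p = 4.9e-151, edgeR quasi-likelihood test with a term for each dog). The adjusted p was 0.036 when the prior of the spread was made robust to genes that vary between dogs. The SE leans on a spread shared by all genes and does not carry the spread of GZMK between dogs. A GZMK UMI was seen in 22.1% ± 9.10 of CD4 members and 7.43% ± 3.86 of PDCD1- CD4 cells, so most CD4 members showed none.

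CD44 stood at 823, 840.2, 839 and 781 in CD4 members and at 475, 616, 606 and 707 in PDCD1- CD4 cells. The groups did not overlap, and the difference was narrowest in dog 4 (log2 fold change 0.42 ± 0.06, adjusted p = 6.88e-09). CXCR6 was at 4.85, 32.1, 17.5 and 35.3 against 4.1, 9.53, 6.13 and 14.4, nearly level in dog 1, where the members held 2 UMIs, and higher in the other dogs (log2 fold change 1.38 ± 0.28, adjusted p = 2.7e-05). Without the term for the dog the adjusted p was 0.0518 for CD44 and 0.113 for CXCR6.

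In CD8A members the markers were less complete. GZMK was at 276, 980.3, 1026 and 779 against 186, 389.5, 613 and 296, higher in 4 of 4 dogs. The fit used dogs 2 and 4, the dogs with at least 20 CD8A members, and gave a log2 fold change of 1.26 ± 0.14 (adjusted p = 1.84e-16), but the adjusted p was 0.599 with the robust prior. CD44 was at 689.7, 746, 678 and 621 against 421, 532, 492 and 483. The CD44 ranges did not overlap over the 4 dogs, but the fit on 2 dogs did not pass (log2 fold change 0.33 ± 0.14, adjusted p = 0.314). CXCR6 rested on 0, 3, 3 and 1 UMIs in the CD8A members and gave an adjusted p of 0.953.

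The 288 members without a coreceptor UMI were higher than their PDCD1- counterparts in the means of these 3 genes. They held GZMK at 344 ± 90.2, CD44 at 834.6 ± 56.4 and CXCR6 at 25.6 ± 11.3, against 107 ± 65.9, 653.6 ± 63.4 and 9.45 ± 3.47 in PDCD1- cells without a coreceptor UMI (n = 4). These values are given as a description.

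**Figure D2:**
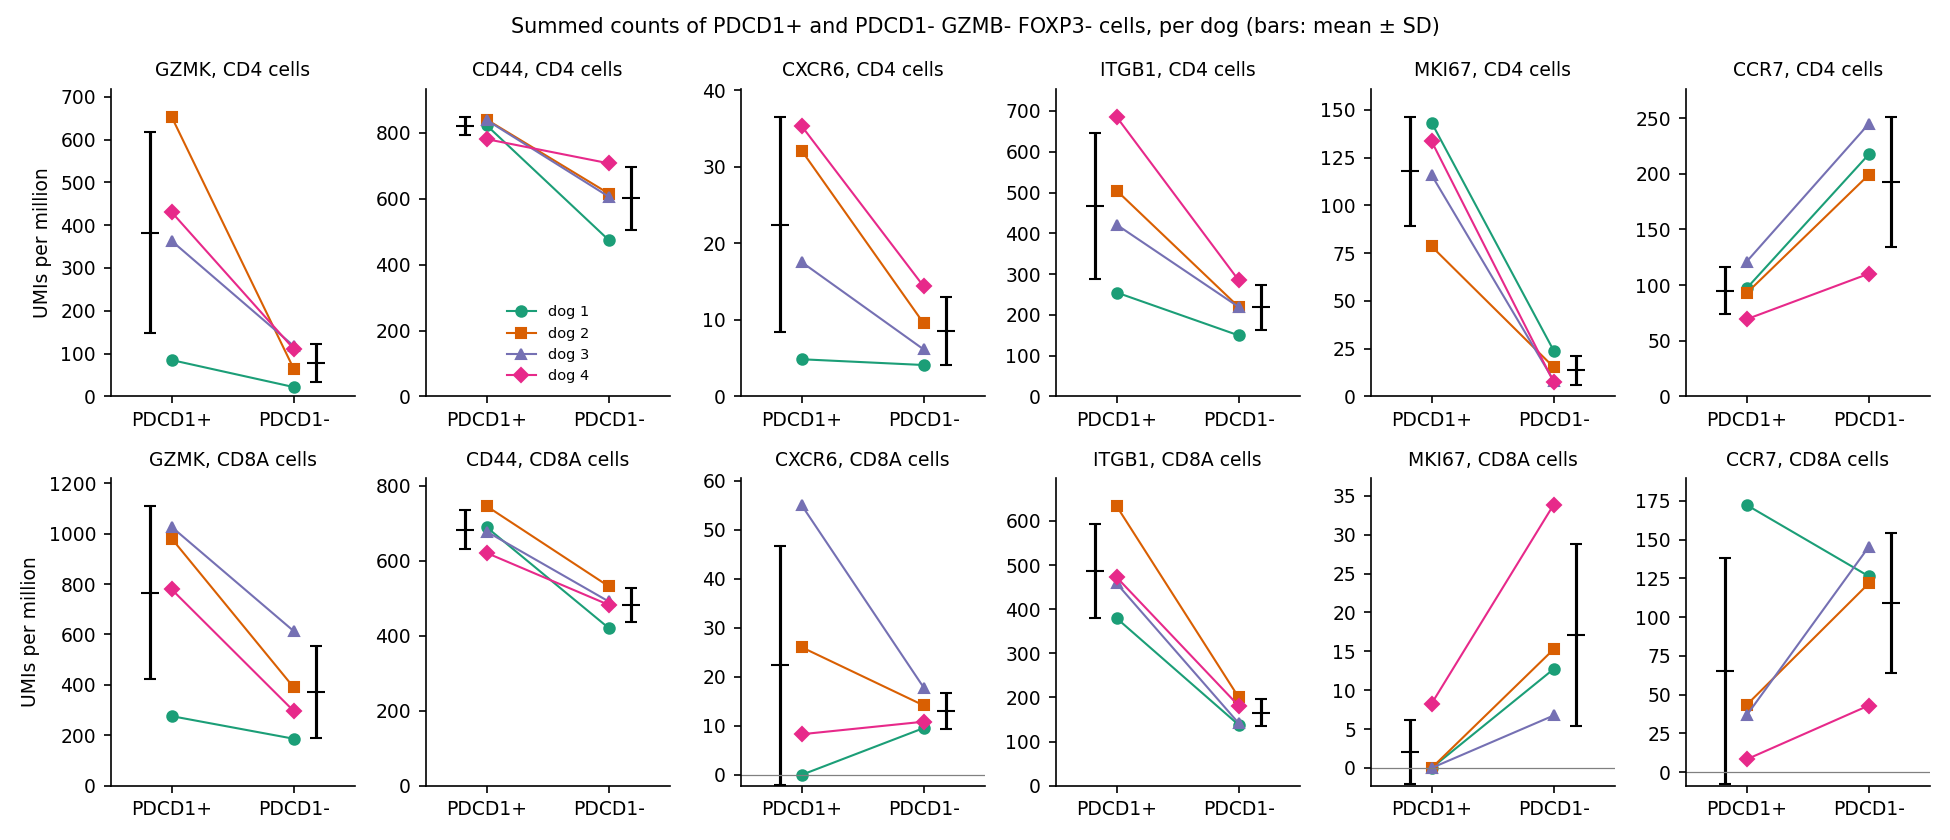
Level in CPM (y axes) of 6 genes in PDCD1+ and PDCD1- cells, CD4 cells above and CD8A cells below. Each line joins the summed counts of a dog, and black bars give the mean ± SD over 4 dogs. GZMK, CD44, ITGB1 and MKI67 were higher and CCR7 lower in the CD4 members of each dog, while MKI67 was at 0 in the CD8A members of 3 dogs.

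The levels beside the thresholds of the rule were as follows, over all dogs and with no test. CD4 cells with 0, 1 and 2 or more PDCD1 UMIs held GZMK at 74.5, 293 and 898 CPM, CD44 at 597, 799 and 896, and CXCR6 at 8.54, 21.3 and 39.5. The pooled levels stepped the same way in the 3 genes, but in dog 1 GZMK went from 97.2 to 16.02 and CXCR6 from 5.72 to 0 between 1 and 2 or more UMIs, with 9 cells in the last class. CD8A cells with 0, 1 and 2 or more PDCD1 UMIs held GZMK at 409, 881 and 743, and from 1 to 2 or more UMIs CD44 went from 692 to 652 and CXCR6 from 24.7 to 13.04, with only 14 cells in the last class. Just outside the rule, the 34 PDCD1+ CD4 cells with exactly 1 GZMB UMI held GZMK at 1357, and the 26 with exactly 1 FOXP3 UMI held it at 45.5.

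Across all 8895 genes tested in the CD4 cells of 4 dogs, 631 were higher and 412 lower in members, 1043 in all (7.09, 4.63 and 11.7% of genes, the background for the counts below). The direction was the same in each of the 4 dogs for 947 of the 1043. The fit that called these genes used the same dogs, so this agreement is a description and not independent evidence. The 2 sums of a dog came from 1 library, and the fit therefore compared them within the dog. Without that term 219 genes were called (2.46%), 174 higher (1.96%) and 45 lower (0.506%). The p-values and the SEs lean on a spread shared by all genes, and a robust prior for it gave 1050 calls. An SE can therefore be smaller than the spread of that gene between dogs. The following lists were counted against that background, and the median log2 fold change of all tested genes was -0.01. Without the term for the dog, 6 of 9 cell cycle, 2 of 17 homing, 2 of 11 cytotoxic, 2 of 14 lineage, 2 of 7 follicular helper and 1 of 10 inhibitory receptor genes were higher and 1 of 11 naive genes was lower, and none of the 14 activation genes was called in either direction. Against the depth-matched reference, 319 of all 6753 genes tested were higher, the background for that fit. There, 5 of 15 homing and 4 of 12 lineage genes were higher, and the inhibitory receptor list had 1 of 6 higher and a median of -0.11.

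Cell cycle genes rose together in the CD4 members. Of 9 genes tested, 8 were higher and none lower, with a median log2 fold change of 2.41. Members were deeper than their reference, and against PDCD1- cells matched for UMI depth 6 of 8 were higher with a median of 1.48. MKI67, a marker of dividing cells, stood at 143, 78.5, 116 and 133 in members and at 23.9, 15.3, 8.25 and 7.48 in PDCD1- cells. The groups were far apart in all dogs (log2 fold change 3.16 ± 0.15, adjusted p = 4.4e-98). RRM2, a subunit of the enzyme that makes deoxyribonucleotides, was at 38.8, 49.9, 49.1 and 35.3 against 5.47, 3.72, 5.18 and 0.946 (log2 fold change 3.58 ± 0.28). TOP2A, UBE2C, CENPF and SPC24, which act in chromosome segregation and mitosis, had log2 fold changes between 2.76 and 3.55, each with 4 of 4 dogs higher. The histone genes H1-5 and H3C11 were among the 8 genes with the largest increases. H1-5 varied most, at 41.3, 157, 272 and 13.1 against 11.8, 3.2, 12.7 and 4.39, and its call was lost with the robust prior (adjusted p = 0.0764). STMN1 was called too (0.39 ± 0.07), but it went to -0.47 when cells with a cell cycle UMI were left out.

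A UMI of MKI67, TOP2A, CLSPN, KIF15 or RRM2 was found in 9.64, 10.4, 7.83 and 12.05% of CD4 members and in 3.16, 3.40, 1.75 and 2.64% of PDCD1- CD4 cells. The lowest member share lay above the highest PDCD1- share. The means were 9.99% ± 1.75 and 2.74% ± 0.731 (SD, n = 4). The 49 such CD4 members had a median of 6312 UMIs against 4402 in all CD4 members, and with them left out on both sides 655 genes were called in CD4 cells (7.55%) in place of 1043.

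Of 11 naive and quiescence genes tested, 6 were lower and none higher, with a median log2 fold change of -0.68. KLF3 (0.018), FOXP1 (-0.016), HOMER2 (-0.16), S1PR1 (0.20) and BACH2 (-1.13, adjusted p = 0.0978) did not pass. CCR7, the receptor that leads naive and central memory cells into lymph nodes, was at 97.1, 92.8, 121 and 69.3 in CD4 members and at 217, 199, 245 and 110.2 in PDCD1- cells, lower in each dog (log2 fold change -1.02 ± 0.11, adjusted p = 4.13e-19). LEF1, a transcription factor of naive cells, was at 415, 178, 205 and 152 against 688, 415, 382 and 229, again lower in each dog although the ranges overlapped (-0.89 ± 0.08). IL7R, the survival receptor for interleukin 7, changed by -0.68 ± 0.07, and the chromatin organizer SATB1 by -1.18 ± 0.14. TCF7 changed by -0.36 ± 0.08. Naive-like cells made up 27.7, 22.6, 27.0 and 14.5% of CD4 members and 41.9, 34.1, 36.6 and 17.7% of PDCD1- CD4 cells, lower in each dog. Since CCR7 and LEF1 define those cells, this is a second reading of the same genes. With naive-like cells left out on both sides, a step that itself uses the listed genes CCR7 and LEF1, 6 of the 10 listed genes then tested were lower, and 713 genes were called in all (8.29%).

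Of 17 homing receptors and integrins, 9 were higher and 2 lower, and without dog 2 there were 6 higher. Among the 6 integrin chains ITGB1 and ITGB2 were called, while ITGA4 (-0.23), ITGAE (-0.13), ITGB7 (0.14) and ITGAL (0.23) did not pass. ITGB1, the β1 integrin chain of memory T cells, was at 255, 505, 421 and 685 against 149.6, 219, 219 and 285. It was higher in each dog and called in each of the 17 alternative fits (log2 fold change 1.05 ± 0.07, adjusted p = 7.46e-42). ITGB2, the β2 integrin chain, changed by 0.69 ± 0.08. The chemokine receptors CXCR3, CXCR6, CCR2, CCR10 and CX3CR1 were higher. CX3CR1, found on effector memory cells, was at 4.85, 8.92, 14.0 and 15.7 against 0.304, 0.596, 0.951 and 1.55 (3.61 ± 0.54, adjusted p = 2.84e-09), and it was not called among cells with 2 or more PDCD1 UMIs (adjusted p = 0.0503, dogs 3 and 4 only). CCR9, the receptor for gut homing, was at 4.85, 37.5, 15.8 and 31.4 against 8.51, 99.6, 63.6 and 125, lower in each dog (-1.78 ± 0.18). CXCR4 was the other gene that fell (-0.20 ± 0.06). The list had 1 lower gene with DESeq2, without cell cycle or naive-like cells, with the depth-matched reference and without dog 1 or 3. It had no lower gene without the term for the dog.

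Of 11 cytotoxic and effector genes tested in CD4 cells, 6 were higher and none lower, and without dog 4 there were 3 higher and 1 lower. Besides GZMK these were CCL4, FASLG, PRF1, CST7 and KLRG1. CST7, the cathepsin inhibitor cystatin F, was at 34.0, 58.9, 56.1 and 65.4 against 10.1, 24.3, 23.0 and 36.1, higher in each dog (1.15 ± 0.16, adjusted p = 3.35e-10). PRF1, perforin, was at 2.43, 24.97, 21.1 and 34.0 against 1.67, 12.2, 11.1 and 18.3 (0.91 ± 0.26, adjusted p = 0.00609). CCL4, an inflammatory chemokine, was at 4.85, 53.5, 59.7 and 400.2 against 9.19, 8.49, 12.5 and 26.8. It was lower in dog 1, and dog 4 alone set much of the mean (3.08 ± 0.13, adjusted p = 0.0537 with the robust prior). The SE does not carry this spread between dogs.

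Inhibitory receptor and exhaustion genes showed a partial pattern. Of 10 tested, TOX, CTLA4 and TIGIT were higher and none was lower, but 1 gene was called without dog 1 and 1 without dog 3. TOX was at 109, 119.5, 133 and 133 in CD4 members and at 72.6, 76.6, 67.4 and 73.4 in PDCD1- cells, with no overlap (0.75 ± 0.11, adjusted p = 4.31e-10). CTLA4 was at 141, 136, 197 and 148 against 97.9, 117, 107 and 156, with dog 4 slightly the other way (0.33 ± 0.10, adjusted p = 0.0119, not called in 10 of 17 alternative fits). TIGIT rested on 3 UMIs in the members of each dog. LAG3 and HAVCR2, named after their values were seen because they are classical exhaustion receptors, held 12 and 4 UMIs over all 479 CD4 members and adjusted p-values of 0.458 and 0.929. ENTPD1 and CD200 had no UMI in CD4 members. None of the 5 PD-1 pathway genes tested, CD274, PTPN11, PTPN6, CD80 and CD28, passed the test.

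Follicular helper genes were higher for 4 of the 7 that could be tested, namely TOX2, MAF, SH2D1A and ICOS. TOX2 was at 46.1, 28.5, 42.1 and 28.8 against 10.6, 14.7, 12.2 and 20.6 (1.24 ± 0.22, adjusted p = 1.38e-06), and MAF at 29.1, 28.5, 19.3 and 36.6 against 9.57, 13.9, 13.3 and 15.7 (1.07 ± 0.24), without overlap for either. SH2D1A, the adaptor SAP, changed by 0.54 ± 0.11. ICOS was lower in dog 4 and higher in the other dogs (0.30 ± 0.10, adjusted p = 0.0229, not called in 11 of 17 alternative fits). CXCR5 and BCL6, the receptor and the regulator that define that lineage, were at 5.86 and 8.31 CPM against 2.98 and 5.36 and did not pass (adjusted p = 0.56 and 0.48).

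Among 14 lineage transcription factors, 8 were higher and none lower. They were TBX21, PRDM1, ZEB2, IRF4, IKZF2, IKZF3, MAF and TOX. TBX21, the regulator of type 1 helper cells, was at 14.6, 32.1, 43.9 and 58.9 against 4.94, 18.1, 16.4 and 31.5 (1.04 ± 0.19), and PRDM1, which encodes BLIMP-1, at 89.8, 94.5, 149 and 158 against 45.3, 64.7, 84.0 and 113 (0.64 ± 0.11), each higher in 4 of 4 dogs. GATA3, RORA and EOMES did not pass. CTLA4 and IKZF2 were also 2 of the 4 regulatory T cell markers tested. That marker list summed to 207 ± 33.7 CPM in CD4 members and 152 ± 27.2 in PDCD1- CD4 cells, with CTLA4 its most abundant gene at 155. Cells with a FOXP3 UMI had been left out on both sides, and the part of cells with undetected FOXP3 in this result was not tested.

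Interferon-stimulated genes were higher for 8 of 10 genes tested, with none lower and a median log2 fold change of 1.04. ISG15, a ubiquitin-like protein, was at 36.4, 39.2, 5.26 and 18.3 against 6.23, 9.98, 1.48 and 7.48 (1.88 ± 0.30, adjusted p = 3.93e-08). OAS1, which senses double-stranded RNA, was at 38.8, 62.4, 15.8 and 61.5 against 12.2, 25.9, 13.3 and 24.8 (1.18 ± 0.19), and MX2 at 94.6, 134, 75.4 and 99.4 against 34.4, 62.4, 49.3 and 74.7 (0.80 ± 0.12). IFIT1, IFIT2, IFIT3, IFI44 and IFI44L also rose. All 8 were higher in each of the 4 dogs. None of the 10 genes was called without the term for the dog.

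Activation genes were mixed. CD44, ICOS, TNFRSF18, IL2RB and CD74 were higher, CD69 was lower and the other 8 of 14 genes did not pass, and without dog 3 there were 3 higher and none lower. IL2RB, a receptor chain for interleukins 2 and 15, was at 107, 309, 272 and 419 against 66.9, 154, 146 and 213 (0.90 ± 0.08, adjusted p = 9.75e-24). CD69, an early activation antigen, was at 160, 189, 212 and 199 against 224, 210, 272 and 232 (-0.32 ± 0.09). The CD69 call was also lost with DESeq2, without cell cycle cells, with the depth-matched reference and without dog 1. Of 10 immediate early and receptor signaling genes tested, NFKBIA was higher (0.60 ± 0.10) and FOS lower (-0.17 ± 0.06). No gene of that list was called in either direction without the term for the dog or with DESeq2. None was lower without cell cycle cells or without dog 1, 2 or 3. No cytokine gene of the 3 that could be tested (IFNG, TNF and IL2) passed, and IL4, IL5, IL17A and CSF2 had no UMI in CD4 members. SAMHD1, a dNTP hydrolase, was called (0.64 ± 0.13) among the 3 genes of a list with SELENOP and ID3. The study had used SAMHD1 to name a memory cluster of these libraries, so this is not independent evidence.

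**Figure D3:**
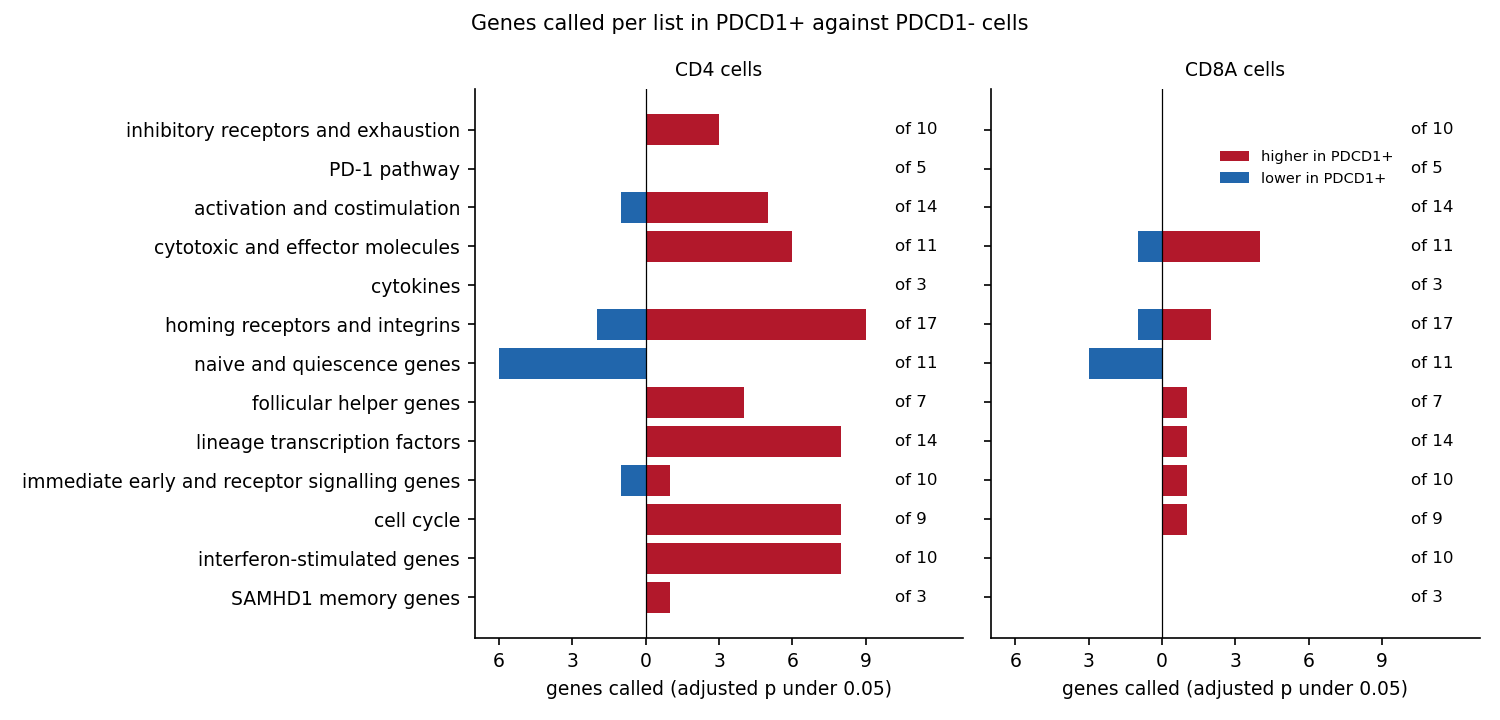
Number of genes per list (x axis) that were higher (red) or lower (blue) in PDCD1+ than in PDCD1- cells at an adjusted p under 0.05, with the number tested at the right of each row. In CD4 cells most genes of the cell cycle (8 of 9) and interferon lists (8 of 10) were higher and those called in the naive list (6 of 11) were lower, and CD8A cells, fitted on 2 dogs, had few calls.

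The genes with the largest decreases in CD4 members, besides CCR9, were FAM241A, SPAG16, C8orf76, CTNNA1, SSBP2, RGS10 and DENND5A. RGS10, a regulator of G protein signaling, was at 194, 51.7, 47.4 and 15.7 against 364, 167, 145 and 43.9, lower in each dog although the dogs differed widely (-1.35 ± 0.12). DENND5A was at 7.28, 10.7, 7.02 and 10.5 against 22.2, 23.2, 19.8 and 22.7, with no overlap, and it kept an adjusted p of 0.00588 without the term for the dog.

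The labelled cell type was checked with marker lists. The 6 T cell markers summed to 3690 CPM in CD4 and 3452 CPM in CD8A members, and CD3E, their most abundant gene, was at 1365 ± 108 in CD4 and 1238 ± 247 in CD8A members (n = 4). The monocyte and dendritic cell markers LYZ, CSF1R, S100A12 and FLT3 had no UMI in members of either coreceptor, and the list sum was the single gene S100A8, a calcium-binding alarmin. S100A8 itself was at 2347, 3462, 3646 and 3512 in CD4 members against 1071, 2146, 2139.8 and 2819.8 (0.68 ± 0.06, adjusted p = 2.55e-32), and at 2104, 3765, 2511 and 2924 in CD8A members against 867, 1578, 1804 and 1297 (1.11 ± 0.09). Of the 3 natural killer markers, NCAM1 and KLRF1 had no UMI in members, and NCR1 had none in CD4 members. NCR1 was at 0, 26.0, 0 and 16.6 in CD8A members against 1.59, 7.45, 5.52 and 8.47 in PDCD1- CD8A cells (1.31 ± 1.05, adjusted p = 0.735), and the part of such cells in the CD8A results was not tested. The platelet and red cell markers PPBP and HBM had no UMI in members. Of the B cell markers, CD79A was read at 8081 ± 385 in CD4 members and 9959 ± 588 in PDCD1- CD4 cells, that is, in T cells at large, while PAX5 had no UMI in members. MS4A1, which encodes CD20, was at 9.71, 8.92, 0 and 1.31 in CD4 members against 1.52, 1.34, 2.33 and 0.172, higher in dogs 1, 2 and 4 (1.82 ± 0.75, adjusted p = 0.104). CD79B stood at 1.05 against 0.214 in the means, was too low to be tested and had UMIs in the CD4 members of dogs 1 and 2 only. The part of B cells in the CD4 results was not tested. Of CD4 members with a T cell receptor β (TRB) chain, 6.43% had more than 1, against 3.58% of PDCD1- CD4 cells, pooled over dogs, with dog 3 the other way, at 0% of members against 3.85%. With those cells left out 1005 of 8843 genes tested were called in CD4 cells. SOX13, the γδ marker that could be read, had no UMI in members.

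In CD8A cells, 70 genes were higher (0.787%) and 97 lower (1.09%) in members, 167 of 8895 (1.88%). The fit held dogs 2 and 4 only, with 23 and 28 members. Without the term for the dog no gene was called, at 702 genes with an unadjusted p under 0.05. DESeq2, with the dog term, called 58 higher and 44 lower of 14153 genes tested. ITGB1 was at 379, 633, 458 and 472 in CD8A members of dogs 1 to 4 and at 138, 199.97, 141 and 181 in PDCD1- CD8A cells. The members of each dog lay above all PDCD1- sums (1.43 ± 0.16, adjusted p = 7.53e-15), and dogs 1 and 3 did not enter the fit. ITGB2 was at 172, 425, 329.9 and 431 against 106, 193, 203 and 185 (1.08 ± 0.18). TCF7, a transcription factor of naive and self-renewing memory cells, was at 276, 130.1, 165 and 108 against 393, 382, 285 and 397, below all PDCD1- sums in each dog (-1.82 ± 0.23, adjusted p = 5.79e-12).

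Of the 11 naive and quiescence genes tested in CD8A cells, CCR7, TCF7 and LEF1 were lower, and without dog 2 there were 1 lower and 1 higher. CCR7 was at 172 in the CD8A members of dog 1, which was not fitted, against 126. Of 17 homing genes, ITGB1 and ITGB2 were higher and CCR9 was lower, with 2 CCR9 UMIs in all 70 CD8A members. Of 11 cytotoxic genes, GZMK, PRF1, CCL4 and FASLG were higher and CCL5 was lower. DESeq2, with the dog term, called none of the 11, the robust prior left 2 higher and none lower, and there were 2 higher without dog 2 and 2 without dog 4. FASLG, the death ligand, was at 34.5, 86.7, 91.6 and 124 against 15.9, 26.8, 36.5 and 40.0, higher in each dog (1.56 ± 0.41, adjusted p = 0.0111). PRF1 was at 0, 139, 91.6 and 166 against 23.1, 33.5, 46.6 and 65.0, with no UMI in the 5 members of dog 1 (1.54 ± 0.33). CCL5 was at 2655, 1223, 568 and 588 against 3854, 1236, 549 and 1682, lower in dogs 1 and 4 and nearly level in dogs 2 and 3 (adjusted p = 0.705 with the robust prior). With all PDCD1- CD8A cells as the reference, also those with a GZMB or FOXP3 UMI, the list turned round, with 0 of 11 genes higher, 4 lower and a median log2 fold change of -0.36 in place of 0.91. GZMK (0.31) and FASLG (0.065) were then no longer called, and PRF1 (-0.19) and CCL4 (-0.58) changed sign.

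TBX21 was higher in CD8A members at 69.0, 121, 220.0 and 174 against 26.2, 43.2, 40.2 and 77.2 (1.20 ± 0.31, adjusted p = 0.00855, but -0.075 with all PDCD1- cells as the reference), and SH2D1A at 69.0, 356, 275 and 174 against 55.7, 118, 144 and 77.2 (1.32 ± 0.23). The TBX21 call was also lost with DESeq2, with the depth-matched reference and without dog 2 or 4. The SH2D1A call was lost with all PDCD1- cells as the reference and without dog 2. NR4A1, an early gene of receptor signaling, rose in dog 4 alone of the dogs fitted and turned to -0.24 without it. PCNA (1.34 ± 0.40) was the cell cycle gene called of 9 tested. No gene of that list was higher with DESeq2, with either other reference (depth-matched or all PDCD1- cells) or without dog 3 or 4. The same held without cell cycle cells and without naive-like cells. No gene of the inhibitory receptor list (10 tested), the PD-1 pathway list (5), the activation list (14), the interferon list (10), the cytokine list (3) or the SAMHD1 memory list (3) passed in CD8A cells, where members held 319563 UMIs in all against 2307154 in CD4 members.

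Of the 4 markers of innate-like CD8 T cells, KLRB1 was higher in CD8A members and the other three did not pass. FCER1G, the Fc receptor γ chain, was at 1035, 234, 531.6 and 836.6 in CD8A members and at 105, 308, 153 and 536 in PDCD1- CD8A cells, higher in dogs 1, 3 and 4 and lower in dog 2 (0.22 ± 0.16, adjusted p = 0.675). NCR3 and ZEB2 gave adjusted p-values of 0.977 and 0.373. KLRB1, the receptor CD161, was at 310.4, 86.7, 220.0 and 547 against 16.7, 66.7, 85.9 and 129.7, higher in each dog (1.53 ± 0.24, adjusted p = 1.87e-07, lost without dog 4). The KLRB1 call was also lost with DESeq2 and with all PDCD1- cells as the reference. The list of 4 markers summed to 1152 ± 618 against 458 ± 273, with FCER1G its most abundant gene in members. Its part in the CD8A results was not tested. In CD4 members FCER1G had no UMI.

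The remaining genes with the largest changes in CD8A members rested on few molecules. Higher were PI3, KLK11, EFHC2, ZNF200, IL12RB1 and TSC22D1. IL12RB1, a chain of the interleukin 12 receptor, was at 113 and 108 in the members of dogs 2 and 4 against 20.9 and 34.5, and had no UMI in those of dogs 1 and 3. Lower were PRNP, EXOC6B, ZC3H4, OXLD1, PSEN2, EPHX1 and the receptor gene TRAV24. EPHX1, a detoxifying epoxide hydrolase, was at 69.0, 34.7, 18.3 and 33.1 against 129, 109, 98.5 and 175, below all PDCD1- sums (-2.17 ± 0.40, adjusted p = 1.71e-05). TRAV24 had no UMI in the CD8A members of dogs 1 to 3 and 58.0 CPM in dog 4, against 92.3, 137, 57.4 and 295 in PDCD1- CD8A cells.

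Both coreceptors shared part of the pattern. Of the called genes, 117 were called in both fits, 11.2% of the CD4 and 70.1% of the CD8A calls, and 115 of them had the same direction, 47 higher and 68 lower. The counts rest on unlike numbers of dogs and cells. The difference between the coreceptors, tested as an interaction, was called for 55 genes (0.618%), 22 with a higher (0.247%) and 33 with a lower change (0.371%) in CD8A cells. Without the term for the dog none was called, at 518 genes with an unadjusted p under 0.05, and DESeq2 called 6 of 14153 genes tested.

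Of the 5 named genes with the most negative difference, 4 are cell cycle or histone genes and the other is TRAV24. For MKI67 the difference (CD8A minus CD4 change) was -5.80 ± 0.72 on the log2 scale (adjusted p = 1.96e-12), with 1 MKI67 UMI in all 70 CD8A members. It was -4.39 ± 1.06 for RRM2 and -3.85 ± 0.78 for H1-5, with 1 and 3 UMIs in CD8A members. With so few UMIs the values of MKI67, RRM2 and H1-5 are a poor measure of size, and their SEs lean on the shared spread. SPC24 was called too, but with 0 UMIs in CD8A members its fitted value is no measure of size. A cell cycle UMI was found in 2 of the 70 CD8A members, both of dog 4, where they made up 7.14% of members against 3.19% of PDCD1- CD8A cells. The dogs fitted thus went opposite ways, dog 2 having 0% against 5.20%. The median log2 fold change of the cell cycle list in CD8A cells was -0.50, and it was 0.33 without dog 2. Without dog 4 it is no measure of size, since the members of dog 2 held no UMI of 5 of the 9 genes. For dogs 1, 2 and 3, with 0 of 5, 0 of 23 and 0 of 14 cells, the exact binomial 95% intervals reach 52.2, 14.8 and 23.2%. They cover counting error only and limit cells with a UMI, not dividing cells. TCF7 fell more in CD8A cells (difference -1.46 ± 0.26, adjusted p = 1.26e-05) and the difference was also called for TOX (-1.33 ± 0.29, adjusted p = 0.00246). The TOX value of -0.58 in CD8A cells did not itself pass (adjusted p = 0.471). TOX was at 138, 113, 147 and 99.4 in CD8A members against 126, 102, 61.0 and 193 in PDCD1- CD8A cells, higher in 3 of 4 dogs and lower in dog 4 alone, which was 1 of the 2 dogs fitted. IL7R fell in CD4 cells but had a log2 fold change of 0.01 in CD8A cells, a difference of 0.69 ± 0.15. GZMK (-1.01 ± 0.15) and CCL4 (-2.17 ± 0.18) changed less in CD8A than in CD4 cells, where the PDCD1- levels were lower. ITGB1, CD44 and LEF1 gave differences of 0.38 ± 0.17, -0.09 ± 0.15 and -0.44 ± 0.33, none of them called.

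**Figure D4:**
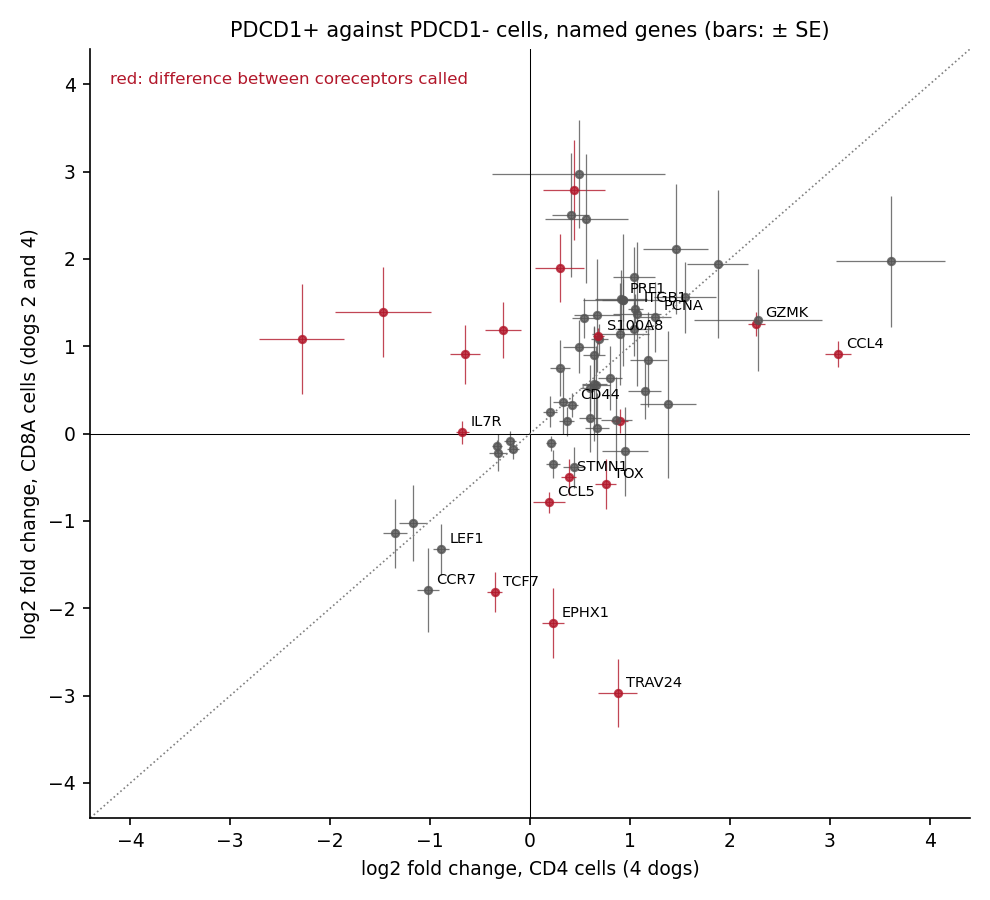
Log2 fold change of PDCD1+ against PDCD1- cells in CD4 cells (x axis, 4 dogs) and CD8A cells (y axis, dogs 2 and 4) for 66 named genes with at least 4 UMIs in the CD8A members fitted. Bars give ± SE, the dotted line marks equal changes and red points are 17 genes whose difference was called. ITGB1 lay near the line, TCF7 and TRAV24 below it and IL7R above it.

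The V(D)J libraries gave a readout that the selection had not used. A productive TRB chain was found in 389 CD4 and 62 CD8A members. Cells with the same TRBV, TRBJ and nucleotide junction in a dog were taken as a clone, and clones of at least 2 cells as expanded. Of CD4 members, 7.46, 34.7, 23.8 and 46.0% were in expanded clones, against 4.77, 29.6, 23.0 and 49.4% of PDCD1- CD4 cells. The dogs differed from each other far more than the groups did. The means were 28.0% ± 16.4 and 26.7% ± 18.4, and the difference of 1.28 ± 3.598 percentage points was within the spread (exact sign-flip permutation test, two-sided, p = 0.5). Of CD8A members, 0 of 4, 14 of 19, 8 of 14 and 20 of 25 cells were in expanded clones, against 30.4, 41.4, 49.4 and 77.0% of PDCD1- CD8A cells (p = 0.625, exact permutation test). Dog 2 showed the widest gap, and without it the CD8A difference was -6.59 percentage points in place of 3.12. Over both coreceptors the sign changed with the clone definition, so no direction is given.

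**Figure D5:**
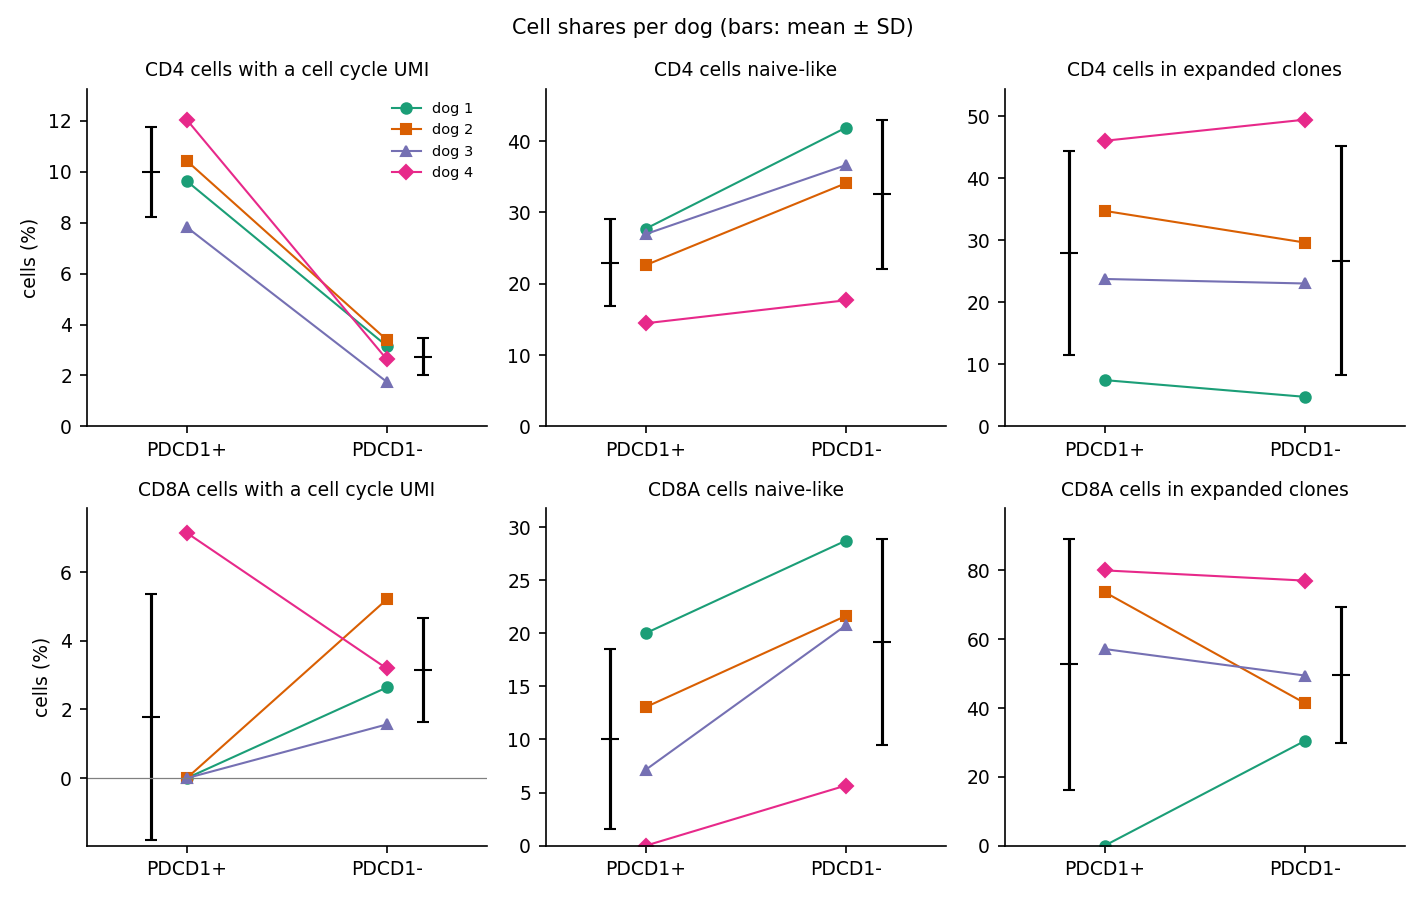
Percent of cells (y axes) with a cell cycle UMI, with a naive-like profile and in expanded clones, for PDCD1+ and PDCD1- cells of each dog, CD4 above and CD8A below. Black bars give the mean ± SD over 4 dogs. The cell cycle share of CD4 members lay above that of PDCD1- cells in each dog, while the clone shares crossed.

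The 389 CD4 members with a TRB chain fell into 372 clones, 11 of which held 2 or more members. One clone of dog 2 stood out, with 8 members among its 17 cells. It carried no CD8A UMI in any cell. The 62 CD8A members fell into 51 clones, 4 with 2 or more members. The largest were 2 clones of dog 4, with 6 members of 53 cells and 4 members of 11 cells. A clone of dog 2 with 69 cells held 35 PDCD1+ cells but 3 members only, because 59 of its cells carried GZMB. The TRB junctions of these 4 clones are printed because they are where members of 1 clone recur. Capitals mark the first and last codon of the junction, those of the conserved cysteine and phenylalanine, and the α chain junction of the first clone follows its β chain.
Dog 2, CD4, TRBV7 and TRBJ2-6: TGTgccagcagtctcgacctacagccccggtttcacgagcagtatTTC
Dog 2, CD4, same clone, TRAV21 and TRAJ54: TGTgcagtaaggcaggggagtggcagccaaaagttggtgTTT
Dog 4, CD8A, TRBV3-1 and TRBJ2-3: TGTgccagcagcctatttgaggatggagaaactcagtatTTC
Dog 4, CD8A, TRBV25 and TRBJ2-6: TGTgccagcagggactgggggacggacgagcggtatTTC
Dog 2, CD8A, TRBV4-3 and TRBJ1-6: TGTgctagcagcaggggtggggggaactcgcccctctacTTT

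In the CD4 clone of dog 2, 15 cells had a TRA chain and all 15 carried the α junction printed above. Its junction has 48 bases, against 42, 39 and 42 in the CD8A clones. Clones with a member hold at least 1 PDCD1+ cell by construction. Over those of 2 or more cells with a CD4 member, 147 of 807 cells (18.2%) were PDCD1+, and over those with a CD8A member 107 of 494 (21.7%), so most cells of such clones had no PDCD1 UMI. TRBV16 made up 16.004% ± 1.06 of CD4 members and 19.7% ± 2.31 of PDCD1- CD4 cells, lower in each dog, and TRBV26 8.56% ± 0.479 against 6.40% ± 0.151, higher in each dog. TRBV24 (1.74 against 1.02%) was also higher and TRBV3-1 (5.35 against 7.72%) lower in each dog, as were TRAV12, TRAV21 and TRAV24 (higher) and TRAV43-1 and TRAV9-11 (lower) among the α chains. Rarer genes were lower in each dog as well. TRBV4-3, TRBV5-4, TRAV34, TRAV40 and TRAV9-2 were used by no CD4 member, and TRAV10 by 1 of 362. The TRAV21 share of dog 2, 10.3% of its CD4 members with a TRA chain, includes cells of the 8-member clone printed above. These were chosen after the values of 22 TRBV and 29 TRAV genes were seen and were not tested. In CD8A members with a TRA chain, TRAV9-11 was used by 14 of 56 cells. It is a receptor gene of canine MAIT-like cells and also of innate-like effector and effector memory cells. Its share was 66.7, 10.5, 16.7 and 36.4% in dogs 1 to 4, against 16.1, 12.8, 15.9 and 17.8% of PDCD1- CD8A cells. It was higher in dogs 1 and 4, nearly level in dog 3 and lower in dog 2. Dog 1 had 5 CD8A members in all, so its share rests on very few cells. In the TRBV3-1 clone of dog 4 printed above, with 6 CD8A members, all 48 cells with a TRA chain used TRAV9-11 with TRAJ20. The TRAV9-11 share of dog 4 may thus include cells of that clone. The part of that clone in the share was not tested, nor was the part of MAIT-like cells in the CD8A results. TRAV24 was used by 0 of the 56 and by 12.4% ± 5.65 of PDCD1- CD8A cells.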

How the data were processed

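The authors aligned the reads of the gene expression and V(D)J libraries and deposited, for each dog, a matrix of raw UMI counts per gene and barcode and a list of receptor contigs, made with Cell Ranger 5.0.1 per the submitters' processing notes and CanFam 3.1. Dog 1's matrix held 20257 genes, but 27980 were listed beside it. Gene names for all 4 matrices were therefore taken from dog 2 (dog 1 against dogs 2, 3 and 4 gave r = 0.991, 0.990 and 0.989 for the log totals per row). Cells with 500 to 20000 UMIs and at most 10% mitochondrial UMIs were kept, which left 31909 of 33125 barcodes. No doublet caller was run. The study gated out doublets at the sort, which does not remove those formed in droplets, and cells with more than 1 TRB chain were left out as an alternative.

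Counts were summed per dog, coreceptor and PDCD1 group. Sums of under 20 cells were left out with their partner, which removed the CD8A pairs of dogs 1 and 3 and left 12 sums. They were fitted together with the edgeR 4.0.16 quasi-likelihood test (R 4.3.3, TMM, filterByExpr), with a term for each dog and coreceptor, and p-values were adjusted by the Benjamini-Hochberg method over 8895 genes at a threshold of 0.05. PDCD1, GZMB, FOXP3, CD4 and CD8A were left out of the test. The 2 sums of a pair come from 1 library, and in CD4 cells the deviations of same-dog sums correlated at 0.462 to 0.563. DESeq2 1.42.0 was an alternative. The edgeR fit was tested on simulated counts with planted changes and the same spread for every gene, which does not probe genes that vary between dogs. Shares were compared by exact sign-flip permutation tests over dogs (Python 3.11.15, scipy 1.17.1), and binomial intervals are exact (Clopper-Pearson).

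Genes named with values are the label markers, listed genes called in either coreceptor, the 8 called genes of largest change per coreceptor and direction (same direction in the dogs fitted, at least 20 CPM in a group) and the 5 largest called differences in each direction. Members, lists and rules were chosen with earlier results of these data known. A few listed genes enter the counts and medians of their lists but are not reported by name here or drawn among the single genes.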

Additional observations from a re-analysis of the deposited data

Results flagged for a closer look

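Values of the 4 dogs were compared within 90 groups, the log2 ratios of CPM + 1 (members over PDCD1- cells) of the 84 named genes called in CD4 cells and 6 sets of cell shares, of which about 1 in 20 would stand out by chance alone. For CCR2 dog 3 stood apart at -0.36, against 0.86 to 1.04 in the other dogs. For the histone gene H3C11 dog 4 stood apart at 0.73, against 3.22 to 3.73, and for PRKAR2B, a regulatory subunit of protein kinase A, dog 3 stood apart at -3.33, against -1.54 to -1.42, on 8 UMIs in all CD4 members.

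The change from PDCD1- to PDCD1+ cells differed between the coreceptors in the interaction test of edgeR for 10 named genes. The difference (CD8A minus CD4, log2) was -5.80 for MKI67, -4.39 for RRM2, -3.85 for H1-5 and -3.85 for TRAV24. MKI67, RRM2 and H1-5 had very few UMIs in CD8A members, so their values are a poor measure of size. For SPC24 the fitted difference of -11.20 is not a measure of size, with no UMI in CD8A members. It was 3.36 for PRKAR2B, 2.86 for TRAV34, 2.35 for KLK11, 1.60 for IL12RB1 and 1.56 for TCEA3. Beside TRAV34, 54 of 54 cells with a TRA chain in the 69-cell CD8A clone of dog 2 used TRAV34, and the part of that clone in the TRAV34 difference was not tested. The CD8A side rested on dogs 2 and 4 for all 10 genes, and none of the 10 passed without the term for the dog.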

How the results depend on the processing

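Counts of calls depended on how the dogs entered the fit. The number of genes tested differed too, so the counts are not shares of 1 total. It was 8895 in the main fit, 14153 with DESeq2 and 6753 with the depth-matched reference. With all pairs of sums kept it was 7547, and with 2 or more PDCD1 UMIs 9229. Without the replicate block, which paired the 2 sums of a dog, 219 genes were called in CD4 cells, 0 in CD8A cells and 0 for the difference between them. With all pairs of sums kept, also those of under 20 cells, and no block, the counts were 158, 9 and 0. DESeq2 gave 524, 102 and 6, with 56.9% of its CD8A calls higher in members against 41.9% in edgeR. A reference matched for UMI depth gave 582, 75 and 13. Leaving out cells with a cell cycle UMI, an alternative added after seeing the data, gave 655 in CD4 cells and 29 for the difference, and leaving out naive-like cells, likewise added, gave 109 in CD8A cells and 35 for the difference. Cells with 2 or more PDCD1 UMIs gave 304 CD4 calls from dogs 3 and 4, and no CD8A sum was then large enough. All PDCD1- cells as the reference gave 54 CD8A calls and a separate fit 69. Leaving out 1 dog gave 637 (without dog 3) to 1018 CD4 calls, 56 (without dog 2) to 159 CD8A calls and 32 to 42 for the difference, the lone CD8A pair then being assumed to vary like the others.

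The share in expanded clones changed sign between alternatives. With 2 or more PDCD1 UMIs the difference was largest, at 10.1 percentage points in CD4 (higher in 3 of 4 dogs) and 28.2 in CD8A cells (84.1 against 55.97%, higher in 3 of 3 dogs, but on 3 of 3, 2 of 3 and 6 of 7 cells). In CD4 cells the difference was -2.48 percentage points with clones of 3 or more cells, -1.37 with the depth-matched reference and -0.37 without naive-like cells. In CD8A cells it was -7.22 with TRA and TRB clones, -2.17 with clones of 3 or more cells, -5.40 without naive-like cells, and -6.59 to 14.3 with 1 dog left out. The share of PDCD1+ cells kept its direction under the 8 alternatives run.

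Of 1887 alternative values for named genes, 1414 kept direction and side of the threshold, 461 lost the call and 12 changed sign. With 2 or more PDCD1 UMIs the CD4 log2 fold change was -0.13 for ICOS, -0.73 for GPR25, -6.99 for TOP2A and -2.45 for TRAV24, the TOP2A value being no measure of size with no UMI in the members fitted. With all PDCD1- cells as reference the CD8A change was -0.76 for CXCR6, -0.19 for PRF1, -0.58 for CCL4 and -0.075 for TBX21. Without cell cycle cells it was -0.47 for STMN1 in CD4 and -0.0345 for CXCR6 in CD8A cells. Leaving out 1 dog gave -0.49 to 0.74 for CXCR6 and -0.24 to 1.93 for NR4A1 in CD8A cells. The cause of these changes was not tested.

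The results rest on 4 dogs of 1 breed, 2 of them in the CD8A fit, and 84.3% of members rest on 1 PDCD1 UMI. Low genes such as LAG3 and HAVCR2, with 12 and 4 UMIs in CD4 members, were not called. TIGIT, also with 12 UMIs there, was called in the main fit, and the part of depth in this was not tested.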

Other observations

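Among members without a coreceptor UMI, a cell cycle UMI was found in 8.87% ± 3.28 of cells against 2.54% ± 0.9998 of PDCD1- cells without a coreceptor UMI (n = 4 dogs). The lowest member share, 6.52% in dog 1, lay above the highest PDCD1- share of 3.92% in dog 2. ITGB1 stood at 593 CPM in these members and at 315 CPM in their PDCD1- counterparts. These values are a description with no test.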
